A study of Homo sapiens with 6 samples.

Results

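Antisense long noncoding RNAs (lncRNAs) are transcribed from the strand opposite a named gene, and their symbols carry that gene's name followed by -AS and a number. The genes described here were the autosomal lncRNA genes with such a symbol whose count, summed over a gene's transcripts, averaged at least 50 over the 6 libraries. Of 1752 autosomal lncRNA genes of that name on file, 200 reached this minimum, among 18672 lncRNA genes and 61014 annotated genes in all. The gene in the stem of each name was taken as its sense partner, which gave 197 distinct partners, since DLGAP1 and HIF1A each have 2 of the lncRNAs and TRD-AS1 has no partner gene in the annotation. The members were thus chosen by their name and by the mean count, which is not a finding. The lncRNAs just inside the minimum were EXTL3-AS1 (mean count 50.5), ZNF571-AS1 (51.0) and THBS4-AS1 (51.3), and VLDLR-AS1 (49.0), MRPL20-AS1 (49.0) and STARD7-AS1 (48.7) lay just outside. A gene could pass on 1 group alone: 37 of the 200 averaged under 50 counts in BCSC and 26 in non-BCSC.

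The study sequenced RNA of paclitaxel (PTX)-resistant MDA-MB-231, an established line of human breast cancer without hormone receptors or HER2 amplification. Sorting by aldehyde dehydrogenase (ALDH) activity gave 3 libraries of breast cancer stem cells (BCSC), which are ALDH+, and 3 of ALDH− cells, called non-BCSC. Both groups are thus fractions of the same resistant line, with no untreated or sensitive cells beside them, and the cell type label reads stem cells for all 6 libraries, so the groups come from the titles. Nothing in the labels says that libraries of a group came from separate cultures or sorts, so p-values measure the spread between these libraries, which may be technical.

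An antisense RNA can act on its own locus or far from it. Head-to-head pairs start close together on opposite strands and can share 1 stretch of promoter, while overlapping pairs can form double-stranded RNA where their exons meet. Many antisense transcripts are made at low levels and are removed in the nucleus by the exosome. Some, such as OIP5-AS1, also called cyrano, are abundant and widely expressed.

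In GENCODE on GRCh37, exons of the lncRNA and its partner overlapped on opposite strands in 152 of the 199 pairs, by 13 to 14004 bases with a median of 372.5. In 32 pairs the lncRNA ran within or across introns of its partner, 12 pairs were head to head without overlap and 2 tail to tail. PYDC2-AS1 lay on the strand of its partner, against its name. The labels describe a second cDNA strand made with dUTP and then degraded, which marks strand, while the study's RNA-seq methods name a general kit with no mention of strand. Whether strand was used in counting is not given in the sources used here, so reads of overlapping sense and antisense exons cannot be told apart in these counts.

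Promoter sequences are shown for 7 members, to set 3 members of head-to-head pairs beside 4 of other arrangements that were called higher or lower. They are RefSeq sequences on GRCh38.p14, written 5′ to 3′ along the lncRNA, without any stretch shared with a coding transcript. Capitals mark letters that match, on either strand, 1 of 6 short motifs chosen after the sequences were seen. The site of the activator AP-1 was searched as TGACTCA, and the cAMP response element as TGACGT. The core of the NRF1 site was searched as GCGCATG, which overlaps none of the others. The GC box read by SP factors was searched as GGGCGG. Of other promoter boxes, the CCAAT box was searched as CCAAT and the TATA box as TATAAA. The first 3 belong to head-to-head pairs, TPT1-AS1 at chr13:45341285-45341394 on the plus strand, RTCA-AS1 at chr1:100266125-100266215 on the minus strand and EIF1B-AS1 at chr3:40309649-40309706 on the minus strand, whose RefSeq starts lie 162, 42 and 9 bases from those of TPT1, RTCA and EIF1B.
TPT1-AS1: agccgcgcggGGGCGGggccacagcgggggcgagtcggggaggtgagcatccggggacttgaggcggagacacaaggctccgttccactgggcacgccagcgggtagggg
RTCA-AS1: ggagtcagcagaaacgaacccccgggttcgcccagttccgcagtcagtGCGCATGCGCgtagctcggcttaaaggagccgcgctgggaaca
EIF1B-AS1: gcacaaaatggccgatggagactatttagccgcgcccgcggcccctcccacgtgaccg
The next 4 belong to DLGAP1-AS2 at chr18:3603487-3603786 on the plus strand and ASB16-AS1 at chr17:44186668-44186967 on the minus strand, which were higher in BCSC, and to STXBP5-AS1 at chr6:147204683-147204864 on the minus strand and ADAMTS9-AS2 at chr3:64684620-64684919 on the plus strand, which were lower.
DLGAP1-AS2: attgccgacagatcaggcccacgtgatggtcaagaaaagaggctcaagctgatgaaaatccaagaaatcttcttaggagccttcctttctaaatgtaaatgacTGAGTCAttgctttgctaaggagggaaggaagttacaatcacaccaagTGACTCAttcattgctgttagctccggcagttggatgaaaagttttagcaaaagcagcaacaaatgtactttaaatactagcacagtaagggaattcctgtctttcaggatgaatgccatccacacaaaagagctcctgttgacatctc
ASB16-AS1: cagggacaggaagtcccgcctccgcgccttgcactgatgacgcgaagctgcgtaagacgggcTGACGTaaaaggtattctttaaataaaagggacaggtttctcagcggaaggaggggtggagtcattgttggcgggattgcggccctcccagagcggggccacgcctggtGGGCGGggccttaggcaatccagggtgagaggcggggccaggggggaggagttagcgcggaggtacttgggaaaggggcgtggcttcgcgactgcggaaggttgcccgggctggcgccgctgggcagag
STXBP5-AS1: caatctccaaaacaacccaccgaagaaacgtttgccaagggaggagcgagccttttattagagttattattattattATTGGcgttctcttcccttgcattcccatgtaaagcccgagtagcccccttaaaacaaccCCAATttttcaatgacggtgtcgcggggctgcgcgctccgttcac
ADAMTS9-AS2: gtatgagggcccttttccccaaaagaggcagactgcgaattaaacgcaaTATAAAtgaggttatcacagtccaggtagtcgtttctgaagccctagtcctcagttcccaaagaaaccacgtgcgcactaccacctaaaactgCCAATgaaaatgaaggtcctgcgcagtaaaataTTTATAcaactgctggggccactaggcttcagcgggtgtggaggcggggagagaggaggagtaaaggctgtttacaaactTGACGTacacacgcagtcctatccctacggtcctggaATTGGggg
The window of DLGAP1-AS2 held 3 CpG in 300 bases and 2 matches to the AP-1 letters, which occur in 4.92% of all 27305 promoter windows of this length and in 2 of the 154 member windows. The window of RTCA-AS1 held the NRF1 letters, found in 4.67% of all windows and in 13 of the 154. The window of ASB16-AS1 held 24 CpG, and that of ADAMTS9-AS2 held 11 with 2 matches each to the TATA box and CCAAT letters. CCAAT letters were in 35.7% of all windows and 35.7% of member windows, and TATA box letters in 12% and 7.79%. Over the 154 members with a window the median was 23 CpG, beside 14 over all windows, 22 over the 33 windows of members called lower and 3 over the 5 of members called higher. GC box letters were in 61.0% of the member windows and 44.6% of all windows.

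Before the comparison, the state of the libraries bears on low genes. Totals ran from 9898588 to 21215352 counts and were larger in each BCSC library. Counts on 407 olfactory receptor genes, which breast cells are not known to use, were 39.6 to 152 CPM of the library total in BCSC and 540 to 1231 in non-BCSC, highest in non-BCSC replicate 3. Of 12 genes of the basal-like mesenchymal state of the line, VIM was highest (mean 3418 CPM in BCSC and 2793 in non-BCSC), then CD44 (2644 and 1456). Others of the 12 were low: KRT5 and KRT14 averaged at most 1.37 CPM in either group. SNAI2 (8.74 and 6.36) lay below the luminal genes ERBB2 (64.7 and 78.3) and FOXA1 (26.2 and 24.0). Of the 12, 1 rose (CAV1) and none of the 10 tested fell. Of 9 luminal genes, summing to 109 to 136 CPM in BCSC and 196 to 226 in non-BCSC, EPCAM was lowest (0.109 and 1.05), and KRT8, KRT18 and PGR fell. Of 11 leukocyte, endothelial and fibroblast genes on file, summing to 56.6 to 85.0 CPM in BCSC and 154 to 172 in non-BCSC, PTPRC, CDH5 and DCN fell and CD68 rose. Of 6 genes of the ALDH sort, ALDH1A1, ALDH1A2 and ALDH3A1 fell in the libraries labelled BCSC, and ALDH1A3, the most abundant of them, was at 25.6, 30.5 and 33.4 CPM across the BCSC libraries and 23.5, 17.0 and 12.1 across the non-BCSC ones (adjusted p = 0.0577 in edgeR). The part of these differences in the results that follow was not tested.

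To ask which antisense lncRNAs differed between the fractions, gene sums were compared in edgeR over all 20442 genes that passed its filter, which all 200 members did. Calls needed a log2 fold change (BCSC over non-BCSC) beyond 1 in either direction and a Benjamini-Hochberg adjusted p below 0.05. Levels are given as CPM, counts scaled by TMM library size, in the order of replicates 1 to 3. In BCSC, 6 of the 200 rose (3%) and 41 fell (20.5%), against 8.85% and 11.3% of all genes and 1.99% and 20.9% of lncRNA genes tested. The members' shares thus lay near those of all lncRNA genes tested, which were not matched to the members in level. Beside lncRNA genes of like level, set out below, the share of members that rose was smaller in each range. It was 4.88% against 9.22% between 100 and 500 mean counts. The shares that fell differed in both directions, and none of these differences was tested. The median log2 fold change was -0.39 over members, -0.05 over all genes and -1.25 over lncRNA genes. Another 5 members were higher and 3 lower at an adjusted p under 0.05 but within the fold limit. In 100 of the 200 members the 2 groups had no overlapping values (BCSC above in 29 and below in 71), while the same held for 52.1% of all genes, 24.2% above and 27.9% below. In bulk RNA, fewer cells making a transcript and less of it per cell cannot be told apart.

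The calls depended on the libraries. With BCSC replicate 1, 2 or 3 left out the count of members higher was 3, 2 and 3, and leaving out non-BCSC replicate 2 gave 2. Members lower numbered 25 without BCSC replicate 2, and 23 without non-BCSC replicate 3. Of the members that fell, 20 of 41 were called in all 6 fits that left out 1 library. Of those that fell, 29 averaged under 50 counts in BCSC, and of those that rose, 4 averaged under 50 in non-BCSC, so that these entered through their higher group.

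**Figure D1:**
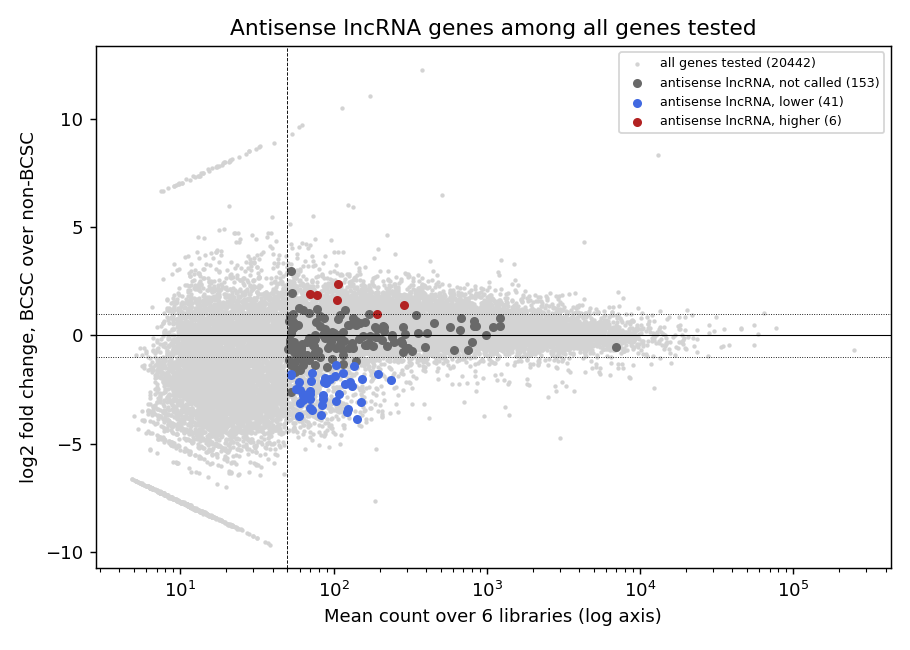
Log2 fold change (BCSC over non-BCSC) against the mean count over 6 libraries on a log axis, for all 20442 genes tested in grey and the 200 antisense lncRNAs in colour. The 41 members lower in BCSC lie between mean counts of 52.8 and 236, and none of the 14 members of 500 counts or more was called in either direction.

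The calls were also read by the level of the lncRNA. Between 50 and 100 mean counts, 25 of 104 members fell and 2 rose, beside 31% and 2.5% of lncRNA genes of that level. Between 100 and 500 counts, 16 of 82 fell and 4 rose, beside 14.7% and 9.22%. At 500 counts or more, none of 14 was called and their median log2 fold change was 0.38, beside 4.21% lower and 10.5% higher of lncRNA genes of that level. By arrangement, 27 of 152 with overlapping exons, 11 of 32 within or across introns and 2 of 12 head to head fell. Those counts were not tested against each other.

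Among the 6 that rose, ASB16-AS1, antisense to a gene of the ankyrin repeat and SOCS box family (chr17:42253336-42264091 on GRCh37, minus strand, 766 bases of exon overlap), was at 11.4, 9.59 and 11.97 CPM across the BCSC libraries and 1.49, 1.41 and 3.36 across the non-BCSC ones. All BCSC values lay above all non-BCSC values, with a log2 fold change of 2.40 ± 0.473 (SE) and an adjusted p of 0.00661 in edgeR. Its partner ASB16 was at 0 in every non-BCSC library and at most 0.591 CPM in BCSC, too low to be tested. DLGAP1-AS2 (chr18:3602998-3610101, plus strand) lies in an intron of DLGAP1, a scaffold protein of the synapse, 852309 bases from its start. This lncRNA was at 24.9, 28.2 and 27.6 CPM across the BCSC libraries and 8.25, 11.7 and 10.7 across the non-BCSC ones, with no overlap between groups, a log2 fold change of 1.40 ± 0.241 and an adjusted p of 0.00378 in edgeR. Only these 2 of the 6 were called in every alternative fit that was run.

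SLC25A25-AS1, antisense to a mitochondrial ATP-Mg and phosphate carrier, was at 7.93, 7.18 and 7.74 CPM across the BCSC libraries and 2.06, 0.883 and 3.26 across the non-BCSC ones. It was the single pair in which antisense and sense both rose: the log2 fold change was 1.88 ± 0.556 for the lncRNA and 1.44 ± 0.426 for SLC25A25 (adjusted p = 0.0311 and 0.0314 in edgeR), and their exons overlap over 665 bases. SLC25A25 lost its call without BCSC replicates 1 or 2 or non-BCSC replicates 1 or 3 (1.20 to 1.51), and with GC content and length corrected (0.53). SLFNL1-AS1 was at 7.59, 5.94 and 7.08 CPM across the BCSC libraries and 1.57, 1.06 and 2.88 across the non-BCSC ones (log2 fold change 1.90 ± 0.551), while SLFNL1 was at 0 in non-BCSC. ARRDC1-AS1, antisense to an arrestin-domain protein of vesicle budding, was at 13.7, 9.65 and 6.17 CPM across the BCSC libraries and 2.56, 1.68 and 5.27 across the non-BCSC ones (log2 fold change 1.64 ± 0.532). In all these lncRNAs the groups did not overlap, and the spread was widest in ARRDC1-AS1. SLC16A4-AS1, in an intron of a monocarboxylate transporter gene, was at 14.0, 16.8 and 20.02 CPM across the BCSC libraries and 7.84, 8.39 and 8.92 across the non-BCSC ones, and its log2 fold change of 1.01 ± 0.277 lay at the fold limit. SLC25A25-AS1 and SLFNL1-AS1 lost their calls when any 1 of BCSC replicates 1 to 3 or non-BCSC replicates 1 and 2 was left out (log2 fold change 1.56 to 2.03 in those fits). ARRDC1-AS1 was not called without BCSC replicates 1 or 2 or non-BCSC replicates 1 or 2 (1.32 to 1.69), nor SLC16A4-AS1 without BCSC replicates 2 or 3 or non-BCSC replicate 2 (0.87 to 1.06).

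In non-BCSC, 5 of the 6 stood under 3 times the olfactory receptor level per kb, with a median of 1.46 times. SLC25A25-AS1 at 0.323 times and SLFNL1-AS1 at 0.380 times were under that level in non-BCSC, while DLGAP1-AS2 was at 9.55 times. After a correction for GC content and length, 3 of the 6 were still called, ASB16-AS1 (log2 fold change 1.56), DLGAP1-AS2 (1.88) and SLC16A4-AS1 (2.21). SLC25A25-AS1 (1.38), SLFNL1-AS1 (1.06) and ARRDC1-AS1 (0.51) were not. Another 4 members were called higher only with it, EFCAB10-AS1 (1.19), FGD5-AS1 (1.18), NUTM2B-AS1 (1.19) and THUMPD3-AS1 (1.11).

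**Figure D2:**
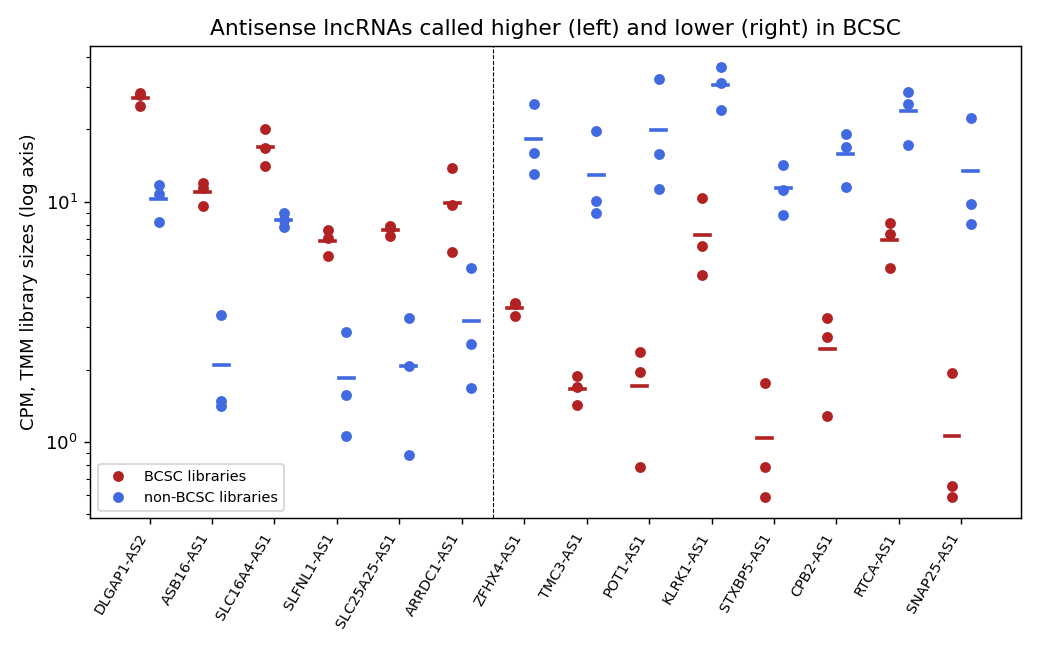
CPM on a log axis in each library (points) and group means (bars) for the 6 antisense lncRNAs called higher in BCSC and the 8 called lower with the smallest p. Genes were drawn only from members whose groups do not overlap, so BCSC (red) and non-BCSC (blue) points lie apart in all 14 by that choice.

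Larger changes were found among the 41 that fell, from -3.85 for TRHDE-AS1 to -1.38 on the log2 scale. Among the 8 with the smallest p whose groups did not overlap, SNAP25-AS1, in introns of the membrane fusion protein gene SNAP25, was at 0.591, 0.652 and 1.94 CPM across the BCSC libraries and 8.09, 9.81 and 22.3 across the non-BCSC ones. Its log2 fold change was -3.66 ± 0.635 (adjusted p = 0.00390 in edgeR). POT1-AS1 (chr7:124569927-125123020, plus strand) starts 110 bases from POT1, whose protein binds the single-stranded end of telomeres. The lncRNA was at 0.788, 1.96 and 2.36 CPM across the BCSC libraries and 11.2, 15.7 and 32.4 across the non-BCSC ones, a log2 fold change of -3.54 ± 0.547, whereas POT1 was at 39.0, 47.5 and 44.8 CPM across the BCSC libraries and 47.0, 55.0 and 48.1 across the non-BCSC ones, and its 2 groups overlapped. STXBP5-AS1, antisense to tomosyn, a regulator of vesicle fusion, was at 0.591, 0.783 and 1.75 CPM across the BCSC libraries and 8.83, 11.1 and 14.2 across the non-BCSC ones, a log2 fold change of -3.44 ± 0.542 (adjusted p = 0.00253 in edgeR). STXBP5 itself was at 92.7, 76.6 and 90.1 CPM across the BCSC libraries and 95.1, 95.2 and 114 across the non-BCSC ones. For SNAP25-AS1, POT1-AS1 and STXBP5-AS1 every BCSC value was under 2.4 CPM and every non-BCSC value above 8 CPM.

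TMC3-AS1 was at 1.43, 1.70 and 1.87 CPM across the BCSC libraries and 8.995, 10.1 and 19.6 across the non-BCSC ones (log2 fold change -2.94 ± 0.454), and TMC3, of the transmembrane channel-like family, was at 0 in all 3 BCSC libraries. CPB2-AS1 was at 1.28, 2.74 and 3.27 CPM across the BCSC libraries and 11.5, 16.8 and 19.1 across the non-BCSC ones (log2 fold change -2.70 ± 0.443). Its partner CPB2, a carboxypeptidase that slows clot lysis, fell as well by 2.28 on the log2 scale, a call lost without BCSC replicates 1 or 2 or non-BCSC replicates 2 or 3 (-2.46 to -1.97), and with GC content and length corrected (-1.54). ZFHX4-AS1, in introns of a zinc finger homeobox gene, was at 3.74, 3.78 and 3.33 CPM across the BCSC libraries and 15.9, 13.0 and 25.5 across the non-BCSC ones (log2 fold change -2.32 ± 0.355). KLRK1-AS1 was the most abundant of these, at 6.55, 4.96 and 10.3 CPM across the BCSC libraries and 36.1, 23.9 and 31.3 across the non-BCSC ones (log2 fold change -2.06 ± 0.322), beside a KLRK1 gene, coding for a receptor of natural killer cells, of at most 1.44 CPM. RTCA-AS1, whose start lies 34 bases from that of the RNA 3′-phosphate cyclase gene RTCA in GENCODE, was at 7.34, 5.28 and 8.10 CPM across the BCSC libraries and 25.3, 17.2 and 28.7 across the non-BCSC ones (log2 fold change -1.78 ± 0.304). RTCA was at 59.7, 64.7 and 63.4 CPM across the BCSC libraries and 65.6, 60.2 and 60.5 across the non-BCSC ones, with overlapping groups.

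GC content was not used in the calls. The median over genes was 41.5% in the 41 that fell (36.4% to 48.2%) and 46.3% in the 153 not called (35.8% to 59.1%). It was 54.5% in the 6 that rose (35.0% to 59.5%), so the ranges overlapped. Across the 200 members, log2 fold change and GC content had a Spearman correlation of 0.55, and across all genes it was 0.54. These points share the 6 libraries, and genes are not independent replicates. With GC content and length corrected 34 of the 41 were still called lower and 3 other members were newly so, and with the olfactory receptor level removed 35 of the 41 were called. The correction moved SNAP25-AS1 to a log2 fold change of -2.93, POT1-AS1 to -2.62, ZFHX4-AS1 to -1.40 and RTCA-AS1 to -1.05, each still called. In non-BCSC the 41 stood at 2.76 to 21.3 times that level per kb, and 1 of them was under 3 times. Their median was 6.70 times in non-BCSC and 12.2 times in BCSC, where the olfactory receptor level itself was lower. The highest of the 6 libraries was non-BCSC replicate 3 in 35 of the 41, which is also the library with the most olfactory receptor counts.

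The 8 most abundant members made up 34.6% of the summed CPM of the 200, and none of them was called in the comparison as given above. OIP5-AS1 alone took 17.8%, at 353, 408 and 487 CPM across the BCSC libraries and 589, 625 and 576 across the non-BCSC ones, so that each BCSC library lay below each non-BCSC library. Its log2 fold change of -0.52 ± 0.122 had an adjusted p of 0.0131 in edgeR but did not reach the fold limit. With GC content and length corrected it was -0.14, with an adjusted p of 0.534 in edgeR. FGD5-AS1 moved the other way, at 99.5, 97.3 and 111 CPM across the BCSC libraries and 59.8, 60.3 and 54.2 across the non-BCSC ones, with a log2 fold change of 0.82 ± 0.124 (adjusted p = 0.00221 in edgeR). Under that correction it was 1.18 and called. FGD5 was at most 2.01 CPM in any library. NUTM2B-AS1 (0.44 ± 0.165), NUTM2A-AS1 (0.37 ± 0.146), THAP9-AS1 (0.02 ± 0.171), WARS2-AS1 (0.42 ± 0.168), GABPB1-AS1 (-0.32 ± 0.152) and THUMPD3-AS1 (0.45 ± 0.162) did not pass an adjusted p of 0.05 in edgeR, the values being log2 fold changes. With the correction NUTM2B-AS1 (1.19) and THUMPD3-AS1 (1.11) were called. Among these the direction of THAP9-AS1 turned with other size factors (-0.07) and that of GABPB1-AS1 with the GC and length correction (0.10).

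Compared per kb of transcript, the lncRNA stood above its partner in all 6 libraries in 39 of 199 pairs, below it in 114, and the order changed between libraries in 46. Length was the unweighted mean over a gene's transcripts on file, so a level per kb depends on which transcripts are listed. OIP5-AS1 averaged 248 CPM per kb against 12.6 for OIP5, a centromere protein. TPT1-AS1 averaged 13.5 against 734 for TPT1, the translationally controlled tumour protein. In 31 pairs the exons overlap over 1000 bases or more, and there the level of the rarer gene rests most on how reads were assigned. TUBA1B-AS1, with 1571 bases of overlap, averaged 21.2 CPM per kb beside 795 for the tubulin gene TUBA1B, and is uncertain for that reason. TUBA1B-AS1, like other names here that are not among the most abundant, the smallest p-values or the fixed lists, was chosen after its values were seen.

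**Figure D3:**
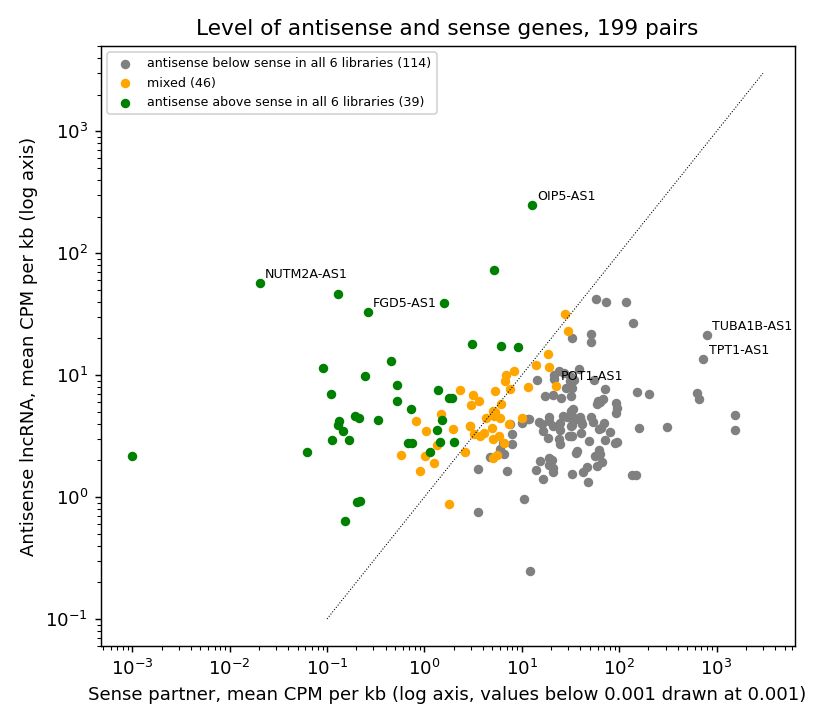
Mean CPM per kb of transcript over the 6 libraries for the antisense lncRNA (vertical, log axis) and its sense partner (horizontal, log axis) in 199 pairs, with a dotted line where both are equal. The 39 lncRNAs above their partner in all 6 libraries are green, and OIP5-AS1 at 248 CPM per kb is the highest member.

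Of the 178 sense partners tested, 20 rose (11.2%) and 18 fell (10.1%), with a median log2 fold change of 0.04, beside 12% and 8% of protein-coding genes. Leaving out 1 library moved these counts to between 13 and 26 higher and between 8 and 19 lower: 13 rose without BCSC replicate 1, and 9, 8 and 10 fell when BCSC replicate 1, BCSC replicate 2 or non-BCSC replicate 3 was left out. After the GC and length correction 9 of the 20 were still called higher and 11 of the 18 lower. In 180 pairs with both genes tested the log2 fold changes had the same sign in 105, and their Spearman correlation across pairs was 0.28, a description over genes measured in the same libraries.

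Both genes fell in 10 of the 180 pairs, named for that. In 27 pairs the lncRNA fell beside a partner not called, and in 8 the partner fell beside an lncRNA not called. Whether 10 exceeds what the separate shares would give was not tested. Where exons of a pair overlap, reads of its genes cannot be told apart. TRHDE-AS1 was at 0.246, 1.37 and 3.27 CPM across the BCSC libraries and 16.6, 21.03 and 32.2 across the non-BCSC ones, and TRHDE, a peptidase that degrades thyrotropin-releasing hormone, was at 0.739, 0.718 and 1.27 CPM across the BCSC libraries and 7.18, 11.7 and 18.5 across the non-BCSC ones. SCN1A-AS1 (log2 fold change -3.05) and the sodium channel gene SCN1A (-3.85) overlap over 1631 bases. TTN-AS1 (-2.14) and TTN, the giant protein titin of muscle (-2.57), overlap over 14004 bases, the longest of any pair. The others were TRDN-AS1 and TRDN, MAGI2-AS3 and MAGI2, MEF2C-AS1 and MEF2C, STARD4-AS1 and STARD4, CPB2-AS1 and CPB2, PCDHB1-AS1 and PCDHB1, and TPRG1-AS1 and TPRG1. STARD4, a carrier of cholesterol, was the partner among them with a high level, at 39.2, 38.7 and 41.2 CPM across the BCSC libraries and 125, 160 and 134 across the non-BCSC ones (log2 fold change -1.82 ± 0.134). All 10 lncRNAs were still called with GC content and length corrected, as were the partners other than STARD4 (-0.93), TPRG1 (-0.67) and CPB2 (-1.54). In these 10 pairs the ratio of the genes was not called in either direction.

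**Figure D4:**
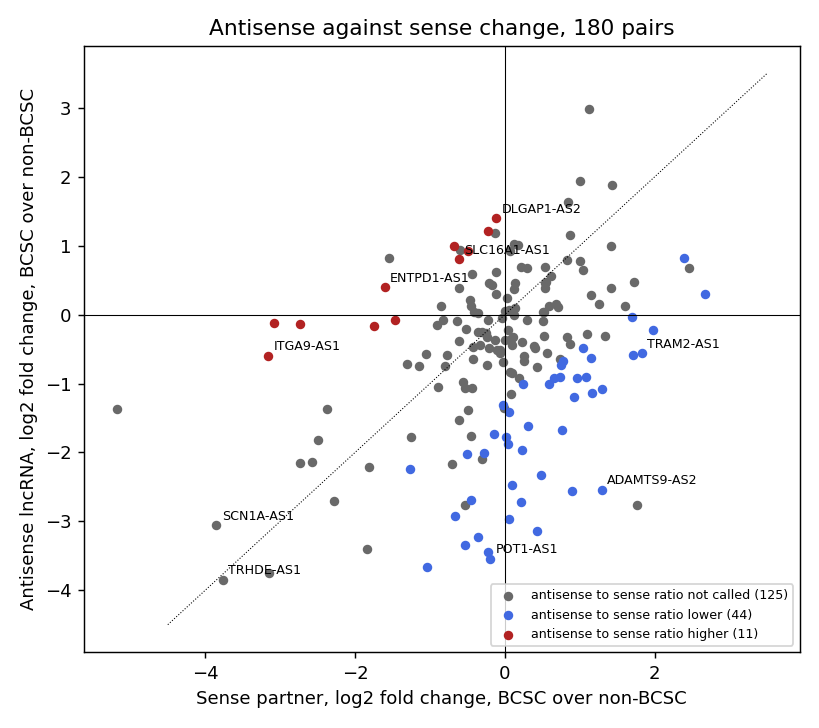
Log2 fold change of the antisense lncRNA (vertical) against that of its sense partner (horizontal), BCSC over non-BCSC, for 180 pairs. On the dotted line both changes are equal. The 44 pairs whose ratio was lower in BCSC are blue and the 11 whose ratio was higher are red.

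To ask whether the lncRNA changed apart from its partner, the log2 ratio of antisense to sense CPM (0.5 CPM added to each) was compared in limma over all 553 pairs on file with both genes past the filter. A pair was called at an adjusted p under 0.05 and a difference beyond 1. Among the 180 member pairs the ratio was higher in BCSC in 11 (6.11%) and lower in 44 (24.4%), against 3.62% and 22.2% of all 553 pairs. The median difference was -0.42 over member pairs and -0.57 over all. Of the 44 lower, the lncRNA itself was called lower in 22, in 18 of them beside a partner with an adjusted p of 0.05 or more in edgeR. The partner was called higher in 12, and neither gene was called in 11. Of the 11 higher, the lncRNA was called higher in 1 (DLGAP1-AS2), the partner lower in 5 and neither gene in 5. Leaving out BCSC replicate 1 gave 19 pairs lower and 6 higher, and leaving out BCSC replicate 2 gave 28 and 5. With the olfactory receptor level removed, 26 pairs were lower.

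ADAMTS9-AS2 (chr3:64670585-65039114, plus strand) had the smallest p among ratios that fell and was the single pair with opposite calls. The lncRNA was at 1.82, 1.24 and 1.27 CPM across the BCSC libraries and 7.92, 10.7 and 6.81 across the non-BCSC ones and fell by 2.54 on the log2 scale. ADAMTS9, a secreted metalloprotease, was at 24.2, 19.2 and 27.2 CPM across the BCSC libraries and 6.11, 12.3 and 10.5 across the non-BCSC ones and rose by 1.29. The groups did not overlap in either gene, and the log2 ratio differed by -3.48 ± 0.479 (SE, adjusted p = 0.000527 in limma). The gene bodies share sequence only over introns.

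In TRAM2-AS1 and ZBED3-AS1 it was the partner that was called. TRAM2, a protein of the endoplasmic reticulum needed for collagen synthesis, was at 305, 264 and 252 CPM across the BCSC libraries and 87.6, 73.4 and 69.5 across the non-BCSC ones. TRAM2-AS1 was at 6.99, 7.24 and 8.16 CPM across the BCSC libraries and 9.33, 11.6 and 12.1 across the non-BCSC ones (log2 fold change -0.56 ± 0.314, adjusted p = 0.203 in edgeR), and the ratio differed by -2.35 ± 0.368 (adjusted p = 0.000842 in limma). ZBED3 was at 63.6, 80.0 and 66.3 CPM across the BCSC libraries and 14.9, 23.7 and 25.4 across the non-BCSC ones and ZBED3-AS1 at 14.1, 19.2 and 21.4 CPM across the BCSC libraries and 19.0, 22.2 and 41.5 across the non-BCSC ones, a difference of -2.24 ± 0.320 in the log2 ratio. In ZFHX4-AS1 and HAND2-AS1 the lncRNA fell and the partner was not called. ZFHX4 itself was higher within the fold limit (log2 fold change 0.49, adjusted p = 0.00589 in edgeR). Log2 ratios of ZFHX4-AS1 to ZFHX4 were -6.34, -6.28 and -6.60 across the BCSC libraries and -3.90, -4.27 and -3.22 across the non-BCSC ones, and the difference was -2.61 ± 0.390. HAND2-AS1 was at 0.837, 1.63 and 2.66 CPM across the BCSC libraries and 8.09, 7.24 and 15.1 across the non-BCSC ones, beside at most 2.01 CPM of the heart and limb factor HAND2, and the ratio differed by -3.11 ± 0.469.

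Head-to-head pairs showed both directions. RTCA-AS1 and EIF1B-AS1 had lower ratios in BCSC, by -1.71 ± 0.353 and -2.01 ± 0.592 (adjusted p = 0.00417 and 0.0228 in limma). EIF1B-AS1, whose start lies 9 bases from that of the translation initiation factor gene EIF1B, was at 2.02, 1.96 and 4.84 CPM across the BCSC libraries and 7.26, 7.51 and 19.8 across the non-BCSC ones, and EIF1B was at 24.0, 21.5 and 17.2 CPM across the BCSC libraries and 17.7, 23.7 and 12.1 across the non-BCSC ones, with overlapping groups. TPT1-AS1 had a higher ratio, by 1.41 ± 0.347 (adjusted p = 0.00992 in limma). The lncRNA was at 27.1, 35.3 and 27.6 CPM across the BCSC libraries and 16.1, 11.1 and 20.2 across the non-BCSC ones, and TPT1 was at 922, 877 and 817 CPM across the BCSC libraries and 1264, 1379 and 1035 across the non-BCSC ones. Both of its changes (0.92 and -0.49 on the log2 scale) were within the fold limit. These are the pairs whose start regions are printed above, and the ratio was called in 3 of the 12 head-to-head pairs.

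SLC16A1-AS1 had the smallest p among ratios that rose. It was at 54.4, 57.3 and 61.0 CPM across the BCSC libraries and 33.8, 23.9 and 41.2 across the non-BCSC ones, while SLC16A1, the lactate transporter MCT1, was at 314, 338 and 340 CPM across the BCSC libraries and 472, 555 and 488 across the non-BCSC ones. The lncRNA lay higher and the transporter lower in every BCSC library, by 0.80 and -0.61 on the log2 scale, each with an adjusted p under 0.05 in edgeR but within the fold limit. With GC content and length corrected the lncRNA was at 0.92 and SLC16A1 at -0.09 (adjusted p = 0.689 in edgeR). Their log2 ratio differed by 1.43 ± 0.291 (adjusted p = 0.00399 in limma). DLGAP1-AS2 rose beside a DLGAP1 of 15.7, 14.5 and 15.1 CPM across the BCSC libraries and 15.6, 16.3 and 17.1 across the non-BCSC ones, a difference of 1.48 ± 0.314 in the ratio. In NOP14-AS1, antisense to a ribosome assembly factor gene, the ratio differed by 1.71 ± 0.383 with -2.20, -2.23 and -2.65 across the BCSC libraries and -3.51, -4.64 and -4.07 across the non-BCSC ones as log2 ratios. The log2 fold change was 0.99 for NOP14-AS1 and -0.68 for NOP14 (adjusted p = 0.0954 and 0.00472 in edgeR), neither called. After the GC and length correction they were at 0.31 and -1.05, and NOP14 was called lower.

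In ENTPD1-AS1 and ITGA9-AS1 the partner fell. ENTPD1, the ectonucleotidase CD39, was at 3.30, 4.11 and 3.08 CPM across the BCSC libraries and 15.3, 6.45 and 10.3 across the non-BCSC ones, and ENTPD1-AS1 was at 44.5, 43.9 and 44.2 CPM across the BCSC libraries and 21.8, 44.6 and 34.2 across the non-BCSC ones, with 5742 bases of exon overlap. Its ratio differed by 1.86 ± 0.417, and the call of ENTPD1 was lost in each fit that left out 1 library apart from non-BCSC replicate 2 (log2 fold change -1.71 to -1.20), with the olfactory receptor level removed (-1.59) and with GC content and length corrected (-1.16). ITGA9, an integrin subunit, was at 0.443, 0.326 and 0.968 CPM across the BCSC libraries and 3.55, 3.80 and 8.34 across the non-BCSC ones, and its lncRNA at 3.65, 3.72 and 3.51 CPM across the BCSC libraries and 1.49, 5.12 and 9.88 across the non-BCSC ones. The ratio of ITGA9-AS1 differed by 2.12 ± 0.512, and was not called without BCSC replicate 1 (2.04) or 2 (1.94), nor was ITGA9 without either of them or non-BCSC replicate 3 (-2.97 to -2.63).

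**Figure D5:**
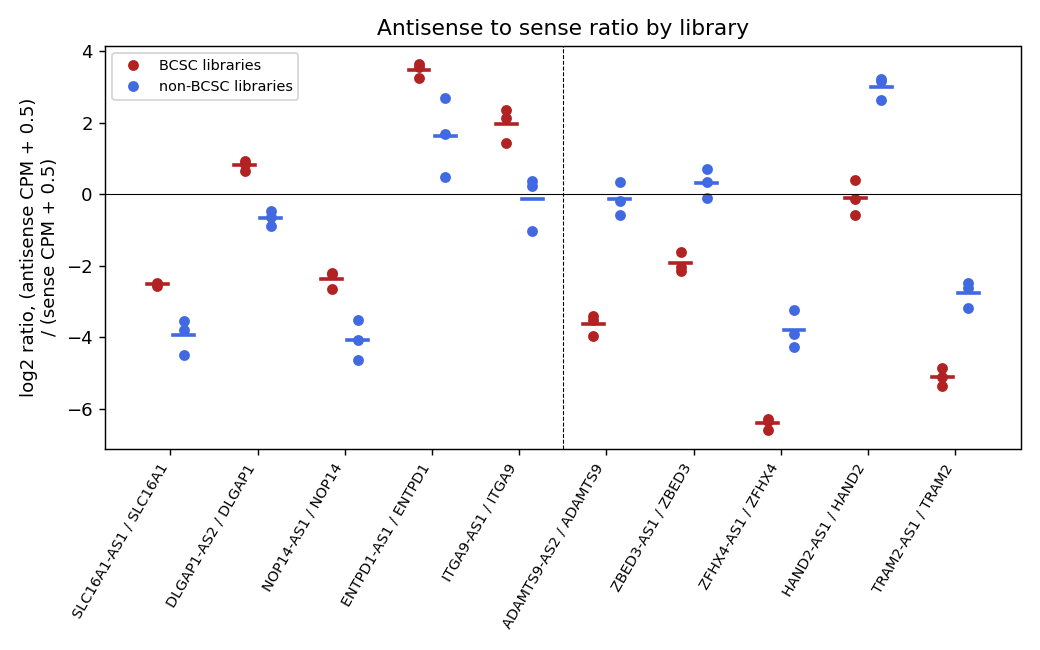
Log2 ratio of antisense to sense CPM (0.5 CPM added to each) in every library for the 5 pairs with the smallest p in each direction, points for libraries and bars for group means. BCSC (red) lies above non-BCSC (blue) in the 5 pairs on the left and below it in the 5 on the right, without overlap.

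For a single pair the exact two-sided permutation test over 3 against 3 libraries cannot go below p = 0.1, the value that each of these 10 pairs gave.

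Other lncRNAs of genes known in breast cancer, chosen after their values were seen, follow. Without a correction none of these lncRNAs was itself called. HMGA2, an architectural chromatin protein, rose by 1.98 on the log2 scale, while HMGA2-AS1 was at 4.68, 5.15 and 4.96 CPM across the BCSC libraries and 4.13, 4.51 and 8.63 across the non-BCSC ones, and the ratio fell by 2.12. EGFR-AS1 was at 2.66, 4.89 and 4.72 CPM across the BCSC libraries and 10.8, 7.33 and 6.43 across the non-BCSC ones and EGFR at 204, 201 and 199 CPM across the BCSC libraries and 194, 175 and 140 across the non-BCSC ones, and the ratio fell by 1.19 (adjusted p = 0.0484 in limma). EGFR-AS1 was called lower with GC content and length corrected (-1.42). ALDH1A3-AS1 was at 1.43, 0.718 and 4.29 CPM across the BCSC libraries and 5.28, 3.09 and 12.3 across the non-BCSC ones with a ratio 2.31 ± 0.651 lower on the log2 scale, across an exon overlap of 1715 bases. HIF1A, the hypoxia factor that the study follows, was at 2210, 2332 and 2458 CPM across the BCSC libraries and 3232, 3405 and 2826 across the non-BCSC ones (log2 fold change -0.44 ± 0.0962, within the fold limit), and at 0.30 with GC content and length corrected (adjusted p = 0.277 in edgeR). Its HIF1A-AS1 was at 4.09, 4.57 and 4.66 CPM across the BCSC libraries and 3.14, 2.21 and 3.45 across the non-BCSC ones and HIF1A-AS3 at 2.41, 3.13 and 4.35 CPM across the BCSC libraries and 6.77, 6.54 and 7.48 across the non-BCSC ones. The BCSC values lay above non-BCSC in the first and below in the second, but neither lncRNA nor its ratio to HIF1A was called (0.60 and -1.07 on the log2 scale, adjusted p = 0.412 and 0.0988 in edgeR).

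Genes of antisense RNA turnover and of double-stranded RNA handling were read from the same fit, in which 12% of protein-coding genes rose and 8% fell. Whether their products act on the members was not tested. Of 22 genes of the nuclear exosome and antisense RNA turnover, 1 rose, EXOSC6 (log2 fold change 1.09), a core ring subunit, and none fell, with 3 in each direction at an adjusted p under 0.05 of any fold in edgeR. EXOSC6 (1.31) and C1D (1.23) were called higher after the GC and length correction. MTREX (0.70), NCBP1 (0.86) and others were then higher at an adjusted p under 0.05 in edgeR, within the fold limit. The 3 that were lower, DIS3, NCBP2 and XRN2, were then at 0.27, 0.04 and 0.08 (adjusted p = 0.189, 0.869 and 0.753 in edgeR). Of 23 genes of double-stranded RNA binding, editing and sensing, 8 rose and none fell, with a median log2 fold change of 0.64, beside -0.05 over all genes. With GC content and length corrected 3 of the 8 were still called, RIGI, OAS2 and OASL, and 2 others were newly so. RIGI, a sensor of viral RNA, was at 131, 140 and 149 CPM across the BCSC libraries and 54.1, 59.5 and 47.0 across the non-BCSC ones (log2 fold change 1.39). OAS2, OAS3 and OASL, of the oligoadenylate synthetase family that senses such RNA, rose by 2.05, 1.61 and 1.73, and MAVS, the adaptor that relays the signal of RIGI, by 1.18. The editing enzyme ADARB1 rose by 1.17 and ADAR, the most abundant editor, was at 631, 609 and 465 CPM across the BCSC libraries and 432, 334 and 325 across the non-BCSC ones (0.64, within the fold limit). DICER1 (-0.07) and DROSHA (0.00), which cut double-stranded RNA, had adjusted p-values of 0.656 and 0.994 in edgeR. With GC content and length corrected DICER1 was at 0.52 and DROSHA at 0.33 (adjusted p = 0.0202 and 0.0999 in edgeR), both within the fold limit.

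Of 47 lncRNAs often followed in cancer studies, antisense by name apart from CYTOR, 45 were on file and 30 were tested, of which 16 are members here. Among the 30, CYTOR, an intergenic lncRNA, rose (1.25), at 81.8, 83.2 and 75.4 CPM across the BCSC libraries and 44.2, 24.8 and 31.9 across the non-BCSC ones, and TTN-AS1, ADAMTS9-AS2, SLC7A11-AS1 and PTENP1-AS fell (-2.14, -2.54, -2.50 and -1.93 on the log2 scale), beside 1.99% higher and 20.9% lower of lncRNA genes. With GC content and length corrected SLC7A11-AS1 (-1.73) and PTENP1-AS (-1.38) were not called. NNT-AS1, a member, lay higher within the fold limit, at 61.6, 67.5 and 74.8 CPM across the BCSC libraries and 46.8, 32.3 and 47.2 across the non-BCSC ones (adjusted p = 0.0192 in edgeR). ZNF667-AS1 and MCM3AP-AS1, both members, were at log2 fold changes of 0.12 and 0.04.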

How the data were processed

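LncRNA sequencing of sorted PTX-resistant MDA-MB-231 cells gave 6 libraries, 3 BCSC and 3 non-BCSC, grouped by title. The authors deposited whole-number counts per transcript, neither normalized nor filtered. The submitters' processing notes name HISAT2, featureCounts, DESeq2 and hg38, while the study's RNA-seq methods name hg19, and the file holds no coordinates, so the build of the alignment is uncertain. Of 252618 transcripts, 249616 (98.8%) matched GENCODE 44 on GRCh37 by identifier and were summed to 61014 genes, which held 99.7% to 99.8% of each library. The 4 assembler-made identifiers were left out. A count of 0 allows up to 3 counts, or 0.141 to 0.303 CPM, and reads without molecular identifiers mean that such limits cover counting error only.

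The quasi-likelihood test of edgeR 4.0.16 (R 4.3.3) was run on gene sums with TMM scaling, filterByExpr and robust dispersions, and the design held group alone. CPM uses TMM library sizes. Values per kb use the unweighted mean length of a gene's transcripts on file. The SE of an edgeR log2 fold change was derived from its test, as the absolute change divided by the square root of F. Ratios were tested in limma 3.58.1 with trend and robust settings. Permutation tests used scipy 1.17.1. The fits were tested on simulated data. Named were members called with the smallest p and groups that did not overlap (up to 8 each way), the 8 of highest CPM, the 5 ratios of smallest p each way, their partners, and listed genes. Members and lists were chosen with earlier results of these data known. Alternatives were RLE size factors, DESeq2 1.42.0, other filters, pseudocounts and thresholds, thinning, a replicate block, each library left out, a loess correction (span 0.3) for GC content and length, and subtraction of the olfactory receptor count per kb. For ratios the loess correction was chosen after seeing the data. Promoter windows (250 bases before to 50 after the start) came from RefSeq by symbol, matching 154 of 200 members.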

Additional observations from a re-analysis of the deposited data

How the results depend on the processing

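Limits first: the common biological coefficient of variation was 0.453, and the smallest called decrease of a member was -1.38 on the log2 scale, so depth and spread limit smaller changes of low members. Of 1135 values recomputed for single genes and pairs, 1014 kept direction and call, 59 lost the call, 21 gained it and 41 changed direction. Median log2 fold changes of all genes were -0.14 with RLE size factors or DESeq2, -1.02 without a filter and 0.13 with the GC and length correction and block, against -0.05. The cause of the moves below was not tested.

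Members higher were 6, and 11 with no minimum fold, and members lower were 41, and 16 at a mean gene sum of 100 or more, where the construction leaves fewer genes. Partners higher were 20, 13 with at least 10 counts in every library, 38 with no minimum fold and 8 at a mean sum of 100 or more, and partners lower were 18, 38 and 8 under the last 2. Ratios higher were 11 and 7 at a mean sum of 100 or more. Ratios lower were 44, 17 at that minimum and 26 with the background removed. With 1 library left out, the ranges were 2 to 9 and 23 to 43 for members higher and lower, 13 to 26 and 8 to 19 for partners, and 5 to 15 and 19 to 50 for ratios.

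Replicate numbers shared by the groups gave correlations of 0.179, 0.0143 and 0.219 for same-numbered libraries, and BCSC replicate 2 correlated best with non-BCSC replicate 1, so the numbers were not taken to pair samples. With the replicate block 7 members were higher and 45 lower, 24 partners higher and 18 lower, and 13 ratios higher and 54 lower. OIP5 was at 0.0223 with the block.

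All directions that changed belonged to genes and ratios without a call. With the GC and length correction, without and with the block, log2 fold changes were 0.10 and 0.10 for GABPB1-AS1, 0.33 and 0.32 for GABPB1, 0.0727 and 0.15 for OIP5, 0.69 and 0.70 for POT1, 0.80 and 0.78 for STXBP5, 0.43 and 0.50 for THAP9, 0.32 and 0.32 for THUMPD3, and 0.28 and 0.28 for WARS2. ARRDC1 (-0.20) and HAND2 (-0.0717) turned without the block and ZBED3-AS1 (0.0035) with it. THAP9-AS1 and RTCA were at -0.0719 and -0.0804 with RLE size factors, -0.0721 and -0.0807 with DESeq2, -0.13 and -0.14 with at least 10 counts and -0.20 and -0.21 with the background removed. RTCA was at -0.0437 when thinned and OIP5 at 0.0051 without a filter. With 1 library left out, log2 fold changes ran from -0.993 to 0.157 for ITGA9-AS1, -0.122 to 0.149 for THAP9-AS1, -0.221 to 0.440 for OIP5, -0.00584 to 0.106 for RTCA and -0.169 to 0.676 for SLC16A4. Ratio differences ran from -0.244 to 0.827 for ARRDC1-AS1, -0.272 to 0.0732 for GABPB1-AS1, -0.331 to 0.747 for SLC25A25-AS1 and -0.0203 to 0.703 for THAP9-AS1.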

Other observations

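The 1552 autosomal antisense lncRNA genes under the minimum of 50 mean counts are not in the counts of members above. Those that passed the filter enter the shares over all genes and lncRNA genes and, with a tested partner, over the 553 pairs. SLC7A11-AS1, named above, is among them. Of the 1552, 421 passed the filter of edgeR, and 3 were called higher and 71 lower in BCSC (0.713% and 16.9%), with a median log2 fold change of -1.37.

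GTF3C2-AS2 and AP1G2-AS1 had 2 of the 3 largest fitted increases among members but were not called. GTF3C2-AS2 had 112, 86 and 98 counts across the BCSC libraries and 0, 7 and 16 across the others (log2 fold change 2.99, adjusted p = 0.0516 in edgeR). AP1G2-AS1 had 163, 62 and 49 counts across the BCSC libraries and 34, 12 and 0 across the others (1.94, adjusted p = 0.197 in edgeR).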
